A study of Mus musculus with 27 samples.

Results

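The genes described here are 38 genes of mitosis and of the G2 to M transition of the cell cycle, followed in cultured mouse bone marrow cells. They were listed by function, as mitotic kinases, kinesins, kinetochore and condensin subunits and cytokinesis genes, and not by a rule on their values. Earlier results of these data were known when the list was made. For each gene the probe set annotated to that symbol alone was taken, and where a gene had several, the one with the highest mean log2 signal over the 27 arrays. A probe set was found for 37 of the 38, among 19935 genes tested in all, and Ccnb1 (cyclin B1) was not measured. Of the 37, only Top2a had more than 1 such probe set.

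Total RNA was hybridised to 27 one-colour Affymetrix arrays in 9 groups of 3 biological replicates. All cells came from the femurs and tibiae of C57BL/6 mice 8 to 12 weeks of age. Unstimulated bone marrow cells formed 1 group, and the labels do not say whether these were taken fresh or kept in culture. Cells cultured with Flt3-L (Flt3 ligand, a cytokine for blood progenitors and dendritic cell precursors, about 200 ng/ml, from transfected B16 tumour cells) were taken at 12 h, 24 h, 48 h and 11 days. In 4 further groups, CsA (Cyclosporin A, an inhibitor of the phosphatase calcineurin and so of the transcription factor NFAT) at 2 µg/ml was added first, by 30 min, and was present for the same times. The comparisons ask how the genes differ from unstimulated cells in Flt3-L culture, and whether CsA changes them there. No labels tie replicates to separate animals, so p-values measure the spread between these samples only.

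Entry into mitosis is driven by Cdk1 bound to a B-type or A-type cyclin and released from inhibitory phosphate by Cdc25 phosphatases. Polo and Aurora kinases, kinesins, condensin and the kinetochore then build the spindle, and a checkpoint holds back the anaphase promoting complex until every chromosome is attached. Transcripts of these genes build up in G2 and M and are low in resting cells. In bone marrow, early erythroid cells, promyelocytes and early B lineage cells are well known for rapid division.

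Signals are log2 of the deposited intensity, and a difference of log2 signals of 1 is a 2-fold change. Probe sets differ in brightness, so levels were compared between groups for each gene and not between genes. Array medians lay between 114.2 and 124.8 in intensity, and the lowest correlation across genes between arrays of a group was 0.997. For 26 of the 27 arrays the best correlated other array was of the same group. Replicate 3 with CsA at 12 h was closest to replicate 3 with Flt3-L alone at that time. As a description of the unstimulated arrays, the intensities of 14 late neutrophil markers summed to between 75779 and 77167, and those of 16 erythroid markers to between 53434 and 58319. No other tissue was set beside these sums, so they do not test the labelled tissue. A gene was called when its adjusted p in the limma fit over all 19935 genes was under 0.05. The share of all genes called is given at each first count, as the background against which a count of the 37 is read.

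Genes of this programme are known for a bipartite promoter, in which a cell cycle genes homology region (CHR, the letters TTTGAA or TTCGAA) lies near the start of transcription with CCAAT boxes upstream of it. NF-Y binds CCAAT, and the DREAM, B-Myb and FoxM1 complexes act at the CHR. RefSeq promoters (build GRCm38.p6, from 250 bases before to 50 bases after a start) were at hand for 32 of the 38 genes, 34 promoters in all, since Ect2 and Prc1 have 2 each. The 2 promoters of each of these genes overlap, so the same letters are counted in both, at different distances from the start. CHR letters were found on either strand in 27 of the 34 promoters (79.4%), against 19.2% of all 32851 promoters of the table. CCAAT was found on either strand in 28 (82.4%, against 37.4%), and at least 2 CCAAT in 17 (50%, against 11.7%). Both letters occurred together in 25 (73.5%, against 7.52%). Both were counted separately and may share an end base, and the promoters of Birc5, Mad2l1, Ncaph and Nusap1 held neither. Of 61 CCAAT matches, 33 began 20 to 110 bases before the start. Of 38 CHR matches, 9 began within 60 bases before the start and 17 after it. Positions were counted in the promoters of these genes only, so they have no background share beside them. These are matches of letters, not bound sites.

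The 130 bases before the start are shown for the 7 genes of highest mean signal whose promoter was at hand and holds a match there, to let the layout be seen. Capitals mark the CHR and CCAAT letters on either strand, and each sequence runs 5′ to 3′ towards the start at its right end. The positions on GRCm38.p6 are chr7:135716380-135716509 (minus strand) for Mki67, chr9:70421555-70421684 (minus) for Ccnb2, chr11:99024190-99024319 (minus) for Top2a, chr19:37376252-37376381 (plus) for Kif11, chr9:61946800-61946929 (minus) for Kif23, chr7:122159305-122159434 (plus) for Plk1 and chr10:69352913-69353042 (minus) for Cdk1.
Mki67: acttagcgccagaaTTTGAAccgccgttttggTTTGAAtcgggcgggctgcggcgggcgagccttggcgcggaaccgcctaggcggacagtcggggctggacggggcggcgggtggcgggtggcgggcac
Ccnb2: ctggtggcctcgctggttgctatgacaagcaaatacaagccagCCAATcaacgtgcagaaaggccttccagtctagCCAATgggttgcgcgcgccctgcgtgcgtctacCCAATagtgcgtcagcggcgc
Top2a: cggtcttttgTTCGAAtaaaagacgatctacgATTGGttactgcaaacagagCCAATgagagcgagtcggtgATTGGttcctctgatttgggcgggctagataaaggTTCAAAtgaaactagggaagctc
Kif11: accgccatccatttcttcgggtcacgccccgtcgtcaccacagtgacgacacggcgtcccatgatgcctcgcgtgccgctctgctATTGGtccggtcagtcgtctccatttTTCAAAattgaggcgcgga
Kif23: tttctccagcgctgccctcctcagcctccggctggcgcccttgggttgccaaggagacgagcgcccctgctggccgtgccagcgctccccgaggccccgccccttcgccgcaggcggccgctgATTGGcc
Plk1: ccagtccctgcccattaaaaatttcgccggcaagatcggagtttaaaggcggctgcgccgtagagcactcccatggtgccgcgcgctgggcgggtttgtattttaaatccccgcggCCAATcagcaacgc
Cdk1: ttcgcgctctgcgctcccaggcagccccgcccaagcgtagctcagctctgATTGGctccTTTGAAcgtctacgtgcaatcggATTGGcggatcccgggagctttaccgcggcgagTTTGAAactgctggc
Mki67 has a pair of CHR matches here, with its CCAAT letters further upstream. Top2a and Cdk1 carry both kinds of letters more than once in this stretch, and Kif11 has a single CCAAT followed by a single CHR match close to the start. Ccnb2 shows 3 regularly spaced CCAAT boxes, and its CHR matches, 5 bases after the start and further upstream, lie outside the stretch printed. Kif23 and Plk1 have 1 CCAAT each close to the start, and their CHR letters begin 3 (Kif23) and 31 (Plk1) bases after it.

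The mitotic genes were lower in Flt3-L culture than in unstimulated cells at every time, and lowest at 11 days. All 4 times were compared with the same 3 unstimulated arrays. At 12 h 36 of the 37 fell (18.1% of all genes did) and 0 rose, with a median log2 difference of -0.46 against 0.052 over all genes. At 24 h all 37 fell (17.7% of all genes), with a median of -0.998 against 0.039. At 48 h all 37 fell again (18.6% of all genes), with a median of -1.16 against 0.012. At 11 days the median of the 37, all of them called lower (24.8% of all genes), was -1.90 against 0.017, which is 3.74-fold. Beyond 2-fold lower were 0 of the 37 at 12 h (1.11% of all genes), 18 at 24 h (2.08%), 30 at 48 h (3.03%) and all 37 at 11 days (7.11%). The 3 arrays lay wholly below the 3 unstimulated ones for 36 genes at 12 h (21.3% of all genes) and for all 37 later (20.5%, 21.8% and 26.7% of all genes). In RNA from a whole culture, fewer dividing cells and less of a transcript per cell cannot be told apart. No group is labelled as cultured without Flt3-L, so Flt3-L and time in culture cannot be told apart in these comparisons either.

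**Figure D1:**
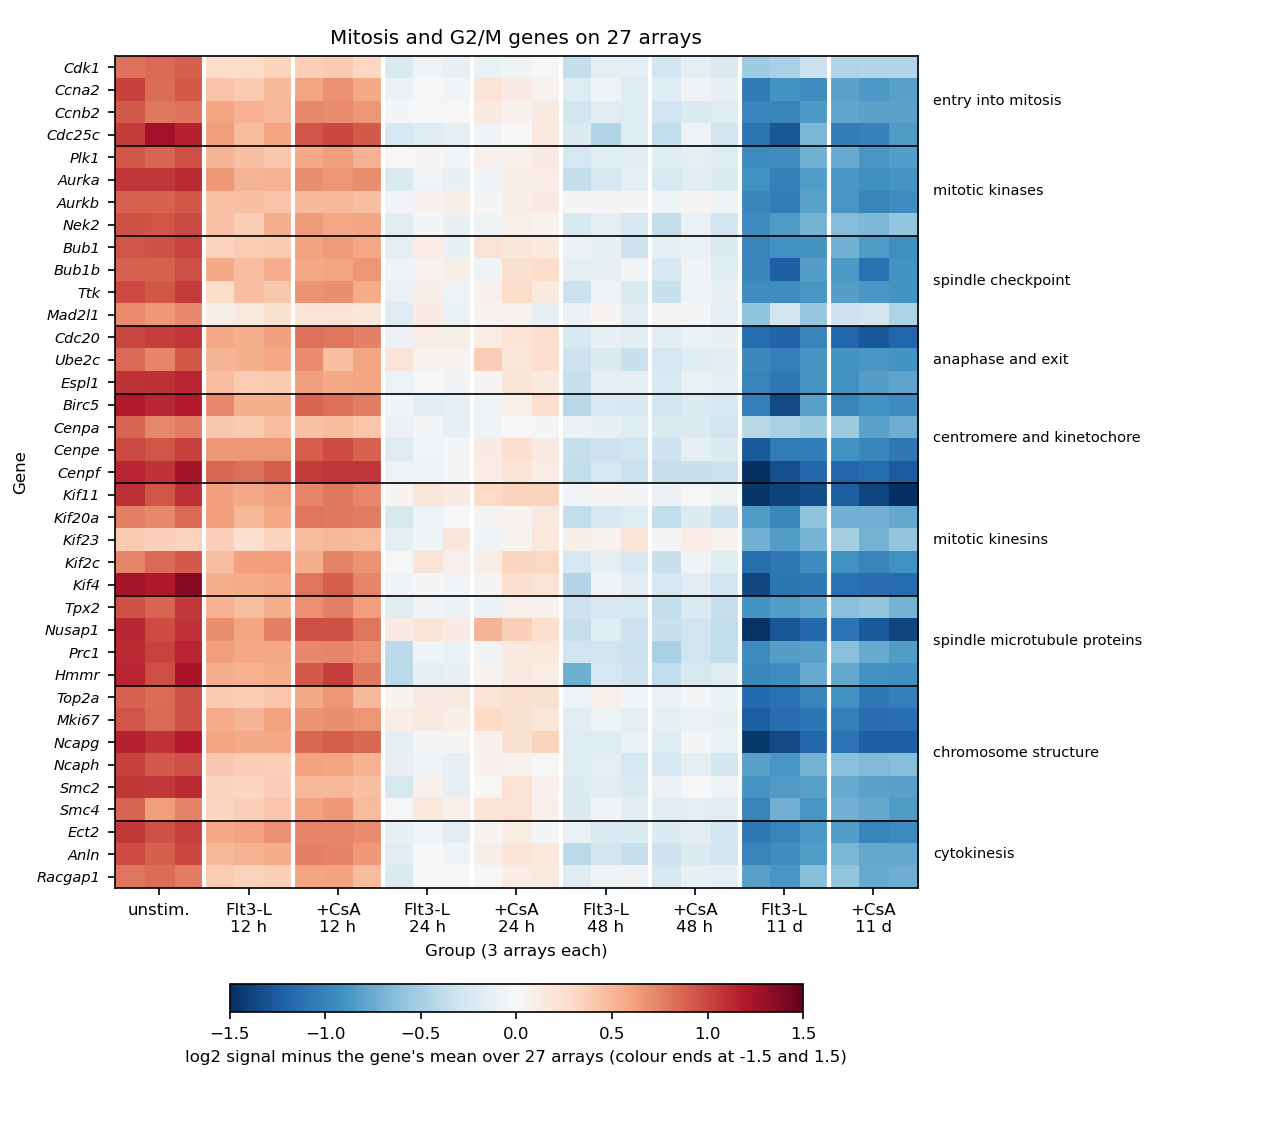
Heat map of the log2 signal of the 37 measured genes on each of the 27 arrays, as the difference from the gene's mean over all arrays. Rows are genes in 9 roles and columns are arrays, 3 for each group in order of time. Colour runs from red (above the mean) in unstimulated cells and at 12 h to blue (below it) at 11 days, and within each time the CsA columns stand beside those with Flt3-L alone.

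Among the genes of entry into mitosis, Cdk1, the kinase that starts it, fell early and then little. Its log2 signal was 11.07, 11.10 and 11.15 on the unstimulated arrays, 10.53, 10.53 and 10.59 at 12 h, and 10.03, 10.20 and 10.14 at 24 h. With Flt3-L alone it was 9.90, 10.10 and 10.12 at 48 h and 9.72, 9.77 and 9.93 at 11 days. The groups do not overlap up to 24 h, whereas the 24 h, 48 h and 11 day arrays do overlap with their neighbours in time. Its difference from unstimulated cells was -0.56 at 12 h (SE 0.063, limma adjusted p = 8.43e-08) and -1.30 at 11 days (adjusted p = 1.46e-15), a 2.47-fold fall. Thus 43.0% of the fall of Cdk1 over 11 days was reached at 12 h and 75.6% at 24 h, where the medians over the 37 genes were 25.4% and 53.5%.

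Ccnb2, the cyclin B2 partner of Cdk1, fell more evenly. It was at 12.27, 12.14 and 12.16 in unstimulated cells, 11.94, 11.87 and 11.84 at 12 h, 11.33, 11.35 and 11.36 at 24 h, 11.07, 11.19 and 11.15 at 48 h and 10.36, 10.34 and 10.49 at 11 days. No array of one time overlapped with those of another. Its fall at 11 days was -1.79 (SE 0.050), and 17.1% of it was reached at 12 h. Ccna2 (cyclin A2) stood at -1.89 and Cdc25c, the phosphatase that activates Cdk1, at -2.17 at 11 days. Cdc25c had the largest difference of all 37 genes at 24 h, -1.35 (SE 0.11, adjusted p = 1.26e-10, a 2.55-fold fall), with arrays at 6.81, 6.88 and 6.94 against 8.13, 8.33 and 8.22 in unstimulated cells.

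All 4 mitotic kinases, Plk1, Aurka, Aurkb and Nek2, fell at each time, with differences between -0.53 and -0.46 at 12 h and between -2.01 and -1.79 at 11 days. Aurkb, the kinase of the chromosomal passenger complex, was at 11.44, 11.44 and 11.49 in unstimulated cells and 10.99, 11.00 and 10.98 at 12 h. Its arrays were at 10.52, 10.63 and 10.64 at 24 h, 10.57, 10.53 and 10.53 at 48 h and 9.58, 9.51 and 9.75 at 11 days. The 24 h and 48 h arrays overlap, and both stand clear of the others. Aurkb had thus made 46.8% of its fall at 24 h and 49.6% at 48 h.

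The spindle checkpoint genes Bub1, Bub1b, Ttk and Mad2l1 also fell at each time. Mad2l1, the checkpoint protein that binds Cdc20, was at 11.57, 11.51 and 11.58 in unstimulated cells, 10.94, 11.01 and 11.09 at 12 h and 10.67, 10.98 and 10.76 at 24 h. At 48 h its arrays read 10.78, 10.89 and 10.70, and at 11 days 10.26, 10.58 and 10.29. The 24 h arrays overlap those at 12 h and at 48 h, which are apart from each other, and the 11 day arrays lie below them all. Its 11 day difference was -1.18 (SE 0.082), the second smallest of the 37, with 46.1% of it present at 12 h, the highest share of any of the 37 genes. The other checkpoint genes stood at -1.90 (Bub1), -1.92 (Bub1b) and -1.90 (Ttk) at 11 days.

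Of the genes of anaphase and mitotic exit, Cdc20, an activator of the anaphase promoting complex, differed by -0.46 at 12 h and by -2.15 at 11 days. Espl1 (separase, the protease that cuts cohesin) was among the 3 genes with the largest difference at 12 h, -0.70 (SE 0.061, adjusted p = 1.48e-09). Ube2c, the ubiquitin-conjugating enzyme of that complex, was at 10.78, 10.66 and 10.87 in unstimulated cells, 10.45, 10.46 and 10.52 at 12 h and 10.12, 9.99 and 9.97 at 24 h. Its later arrays were at 9.62, 9.72 and 9.60 at 48 h and 8.96, 8.91 and 9.05 at 11 days. No time overlapped with another for Ube2c.

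At the centromere and kinetochore, Cenpf, a protein of the outer kinetochore, had the largest difference of the 37 at 11 days, -2.48 (SE 0.060, adjusted p = 1.22e-21, a 5.60-fold fall). Its arrays read 10.02, 9.96 and 10.12 in unstimulated cells, 9.74, 9.71 and 9.78 at 12 h and 7.39, 7.56 and 7.70 at 11 days. Only 11.8% of its fall was reached at 12 h. Cenpa, the histone variant that marks the centromere, fell less, from 10.98, 10.83 and 10.87 to 10.51, 10.50 and 10.57 at 12 h, 10.02, 10.09 and 9.98 at 24 h, 10.02, 10.00 and 9.93 at 48 h and 9.69, 9.62 and 9.56 at 11 days. Its 24 h and 48 h arrays overlap, and its 11 day difference was -1.27. Birc5 (survivin, a passenger complex subunit) stood at -2.24 and Cenpe, a kinetochore motor, at -2.10.

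The mitotic kinesins ranged widely, from Kif11, with one of the 3 largest differences at 11 days, to Kif23, with the smallest. Kif11, the motor that pushes spindle poles apart, was at 11.53, 11.37 and 11.51 in unstimulated cells, 11.03, 10.98 and 11.05 at 12 h, 10.45, 10.61 and 10.55 at 24 h, 10.38, 10.45 and 10.39 at 48 h and 8.96, 9.03 and 9.09 at 11 days. The 24 h and 48 h arrays meet at their edge, and the 11 day arrays stand far below. Its 11 day difference was -2.44 (SE 0.061, adjusted p = 3.17e-21), of which 43.5% was present at 48 h. Kif4, a chromosome-bound kinesin, was among the 3 genes of largest difference at 12 h (-0.70), 24 h (-1.30) and 48 h (-1.48).

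Kif23, the kinesin of the central spindle, was the gene of smallest difference at all 4 times. It was at 10.78, 10.76 and 10.74 in unstimulated cells and 10.75, 10.64 and 10.74 at 12 h, when it was the only gene of the 37 not called (-0.051, SE 0.072, adjusted p = 0.616). Its arrays read 10.26, 10.33 and 10.56 at 24 h, 10.48, 10.45 and 10.58 at 48 h and 9.67, 9.56 and 9.70 at 11 days. The 12 h arrays overlap those of unstimulated cells, and the 24 h arrays overlap those at 48 h. The difference was -0.38 at 24 h (adjusted p = 0.000128), -0.26 at 48 h (adjusted p = 0.00528) and -1.12 at 11 days (adjusted p = 5.01e-13).

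Spindle microtubule proteins included Hmmr, which had the largest difference of the 37 at 48 h. Hmmr was at 9.59, 9.41 and 9.68 in unstimulated cells and 7.71, 8.18 and 8.13 at 48 h, a difference of -1.55 (SE 0.10, adjusted p = 1.96e-12). At 11 days it read 7.47, 7.51 and 7.69, so that 77.5% of its fall was made by 48 h. Nusap1, which bundles spindle microtubules, was at 11.36, 11.21 and 11.32 in unstimulated cells, 10.93, 10.82 and 10.99 at 12 h, 10.35, 10.43 and 10.36 at 24 h, 9.89, 10.06 and 9.92 at 48 h and 8.76, 8.95 and 9.05 at 11 days. Its groups are all separate, and it was among the steepest at 11 days (-2.38). Prc1, a microtubule crosslinker of the midzone, and Tpx2, an activator of Aurora A, stood at -1.95 and -1.81 at 11 days.

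Among genes of chromosome structure, Mki67 (the Ki-67 antigen that coats mitotic chromosomes) was at 12.49, 12.40 and 12.52 in unstimulated cells, 12.11, 12.06 and 12.15 at 12 h, 11.66, 11.69 and 11.65 at 24 h, 11.38, 11.47 and 11.40 at 48 h and 10.31, 10.41 and 10.46 at 11 days. Each of these groups was separate from the next. Its differences were -0.36 at 12 h (SE 0.050, adjusted p = 1.89e-06), -0.80 at 24 h, -1.05 at 48 h and -2.08 at 11 days, the last a 4.22-fold fall. Top2a, the topoisomerase that untangles sister chromatids, was at 11.53, 11.49 and 11.60 in unstimulated cells, 11.04, 11.04 and 11.06 at 12 h, 10.69, 10.77 and 10.79 at 24 h, 10.57, 10.73 and 10.61 at 48 h and 9.49, 9.54 and 9.66 at 11 days. The 24 h and 48 h arrays overlap, and the difference went from -0.91 at 48 h to -1.98 at 11 days.

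The condensin subunits, which compact mitotic chromosomes, fell at every time. Smc2, an ATPase of both condensins, had the largest difference of the 37 at 12 h, -0.74 (SE 0.062, adjusted p = 5.88e-10, a 1.67-fold fall). Ncapg, a subunit of condensin I, was second at 11 days with -2.47 (SE 0.070), its arrays at 7.82, 7.91 and 8.10 against 10.43, 10.36 and 10.46 in unstimulated cells. Ncaph and Smc4 stood at -1.77 and -1.61 at that time. Of the cytokinesis genes, Ect2, the exchange factor that activates RhoA at the cleavage furrow, was at 11.27, 11.16 and 11.23 in unstimulated cells, 10.78, 10.80 and 10.89 at 12 h, 10.10, 10.16 and 10.05 at 24 h, 10.11, 10.00 and 9.98 at 48 h and 9.14, 9.21 and 9.34 at 11 days. Only the 24 h and 48 h arrays overlap, and the 11 day difference was -1.99. Anln (anillin, a scaffold of the furrow) and Racgap1, the partner of Kif23, stood at -1.88 and -1.58.

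**Figure D2:**
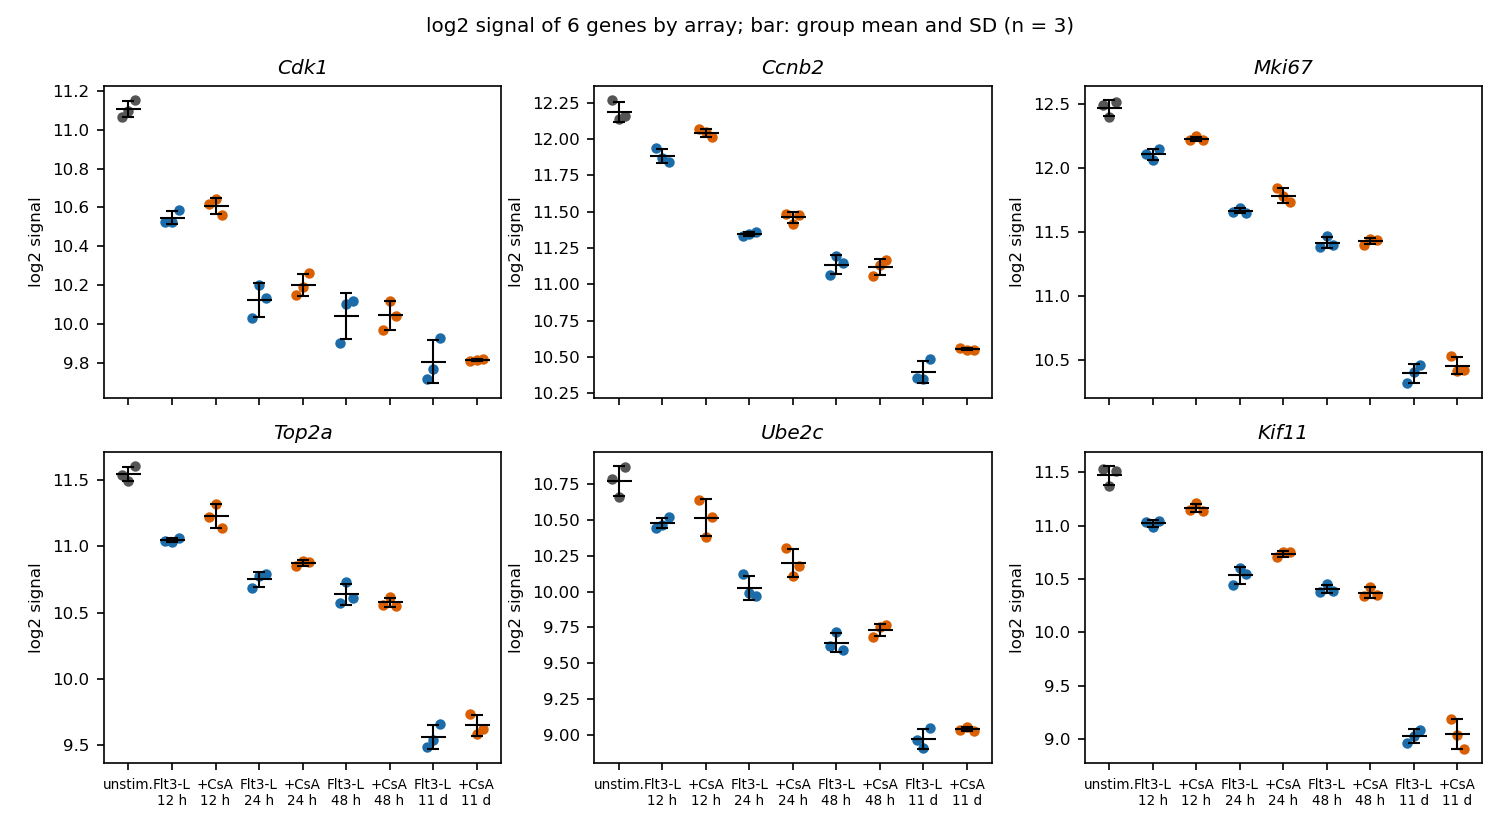
Log2 signal of Cdk1, Ccnb2, Mki67, Top2a, Ube2c and Kif11 (y axis, a separate scale for each gene) on every array of the 9 groups (x axis, in order of time). Points are arrays, grey for unstimulated cells, blue for Flt3-L alone and orange for Flt3-L with CsA, and bars give the mean and SD (n = 3). Cdk1 goes only from about 10.1 to 9.8 after 24 h with Flt3-L alone, while Kif11 and Top2a drop by over 2-fold between 48 h and 11 days.

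From one time to the next with Flt3-L alone, the median fall was smaller between 24 h and 48 h than in the intervals before and after. These intervals differ in length, and no arrays were taken between 48 h and 11 days, so the course within that interval was not seen. Between 12 h and 24 h 36 of the 37 fell (5.52% of all genes), with a median of -0.50 against -0.0056 over all genes. Cenpf moved most in that step (-0.92, SE 0.060, adjusted p = 4.44e-11), followed by Prc1 (-0.78) and Hmmr (-0.76). Mad2l1 moved least and was not called (-0.21, adjusted p = 0.121), although without the second 24 h array its adjusted p was 0.0260. Between 48 h and 11 days all 37 fell (18.8% of all genes), with a median of -0.74 against 0.016. Kif11 fell most (-1.38, SE 0.061), then Ncapg (-1.17) and Top2a (-1.08), and Cdk1 least (-0.24, SE 0.063, adjusted p = 0.00288).

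Between 24 h and 48 h 11 of the 37 fell (7.43% of all genes) and 0 rose (9.71% of all genes), with a median of -0.13 against -0.018. Those called were Anln, Ccnb2, Cdc20, Cenpe, Cenpf, Kif2c, Mki67, Nusap1, Plk1, Smc4 and Ube2c. Nusap1 (-0.43, SE 0.079, adjusted p = 0.000325), Ube2c (-0.38, adjusted p = 0.000162) and Kif2c, a kinesin that depolymerises microtubules (-0.30, adjusted p = 0.00848), moved most. Mad2l1 (-0.016, SE 0.082) moved least, and Kif23 was the only gene above 0 (0.12, not called). The count was 6 without the second 24 h array with Flt3-L alone, and Kif2c then had an adjusted p of 0.0596. Without replicate 3 at 24 h 1 gene was called higher. At 24 h and 48 h the fall over 11 days was 53.5% and 62.1% complete by the median of the 37 genes, with ranges of 33.7% to 75.6% and 23% to 81.9%.

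Other genes of the same processes, listed by function with earlier results of these data known, also fell for the most part. Of 22 other kinetochore and passenger genes, 20 fell at 12 h, 22 at 24 h and at 48 h and 21 at 11 days, with a median of -1.84 at 11 days. Kif18a, a kinesin that dampens chromosome movement, stood at -3.05 (SE 0.08, limma adjusted p = 2.76e-21) among 19 other kinesin and spindle genes, of which 18 fell at 12 h and all 19 later. Knl1, a scaffold of the kinetochore, stood at -2.71 and Cenpk at -2.48 at 11 days. All 4 other condensin subunits fell at each time, to -2.30 for Ncapd2 and only to -0.60 for Ncaph2 at 11 days. Of 6 other regulators of entry into mitosis (Wee1, Pkmyt1, Cdc25a, Cdc25b, Mastl and Bora), all fell at each time, Cdc25b to -2.22 at 11 days.

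Genes of the anaphase promoting complex and cohesin were less uniform. Of 21, 12 fell and 4 rose at 12 h, and 14 fell and 4 rose at 11 days. Of all genes, 17.8% rose at 12 h, 17.9% at 24 h, 18.5% at 48 h and 27.2% at 11 days. Fbxo5 (Emi1, an inhibitor of the complex) fell most at 11 days (-2.47, SE 0.09), followed by Fzr1 (Cdh1, an activator, -1.84). Of 14 transcription factors of the G2/M programme, 10 fell and 1 rose at 12 h and 11 fell and 1 rose at 11 days. Mybl2 (B-Myb) fell by 1.11 at 12 h and by 2.36 at 11 days on the log2 scale, E2f4 stood at -0.88 at 12 h, and Foxm1 at -1.73 at 11 days.

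Genes of S phase, which copy DNA before mitosis, had their fall earlier. All 23 measured S phase genes fell at 12 h, with a median of -0.90 where the mitotic genes had -0.46, and the medians were -1.10 against -0.998 at 24 h, -1.05 against -1.16 at 48 h and -1.61 against -1.90 at 11 days. At 11 days 21 of the 23 were called lower and 1 higher. Ccne1 (cyclin E1, -1.44, SE 0.08), Cdc6 (-1.32) and Prim1 (-1.19) fell most at 12 h. The difference between the 2 lists was not tested.

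Markers of dividing marrow lineages moved over the same times. Of 16 erythroid genes, 11 fell at 12 h, 15 at 24 h, 16 at 48 h and 15 at 11 days, with medians of -0.56, -1.95, -2.51 and -5.47, and the erythroid summed intensity went from 53434 to 58319 in unstimulated cells to 4401 to 4670 at 11 days. Of 11 promyelocyte and primary granule genes, 6, 6, 10 and all 11 fell at those times, and their sum went from 41510 to 43273 to 8756 to 9508. Of 13 early B lineage genes, 2 fell and 5 rose at 12 h, and 11 fell and 2 rose at 11 days. Macrophage genes rose, 9 of 15 at 12 h (4 fell; 17.8% of all genes rose) and all 15 at 48 h (18.5% of all genes) and 11 days (27.2% of all genes), and 15 of 16 conventional dendritic cell genes rose at 11 days. The part of these shifts in the fall of the mitotic genes was not tested. Summed over the 37 genes, the intensity was 66750 to 70744 in unstimulated cells, 50283 to 52046 at 12 h, 35016 to 37863 at 24 h, 32077 to 34044 at 48 h and 18616 to 20472 at 11 days.

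**Figure D3:**
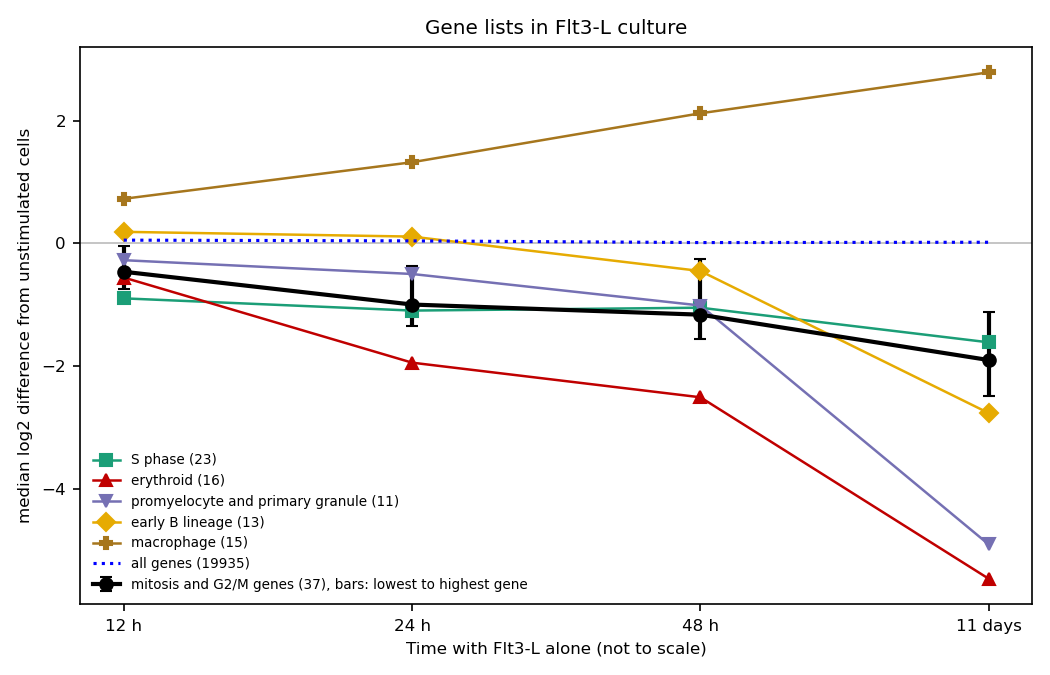
Median log2 difference from unstimulated cells (y axis) of the 37 mitotic genes and of 5 marker lists at 4 times with Flt3-L alone (x axis, not to scale). Black bars span the lowest to the highest of the 37 genes and the dotted line is the median of all genes, which stays within 0.06 of 0. The S phase median is the lower of the 2 cell cycle lists at 12 h and the higher at 11 days, the erythroid median falls furthest, and the macrophage median rises.

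With CsA, the mitotic genes stood slightly higher than with Flt3-L alone at 12 h. All 37 differences were above 0 (38.5% of all genes were), also after quantile normalization or subtraction of array medians, with a median of 0.18 against -0.043 over all genes. Of the 37, 10 rose (2.82% of all genes) and 0 fell (3.91% of all genes): Cdc20, Cenpe, Cenpf, Ncaph, Ncapg, Anln, Cdc25c, Ttk, Bub1 and Hmmr. At an unadjusted p under 0.05 there were 26 (26.3% of all genes), and 32 had all 3 CsA arrays above all 3 others (12% of all genes). The sizes were small, a median of 1.13-fold.

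Cdc25c differed most, at 8.02, 8.08 and 7.99 with CsA against 7.71, 7.54 and 7.66 with Flt3-L alone, 0.39 higher (SE 0.11, limma adjusted p = 0.0305, 1.31-fold). Hmmr was at 9.36, 9.48 and 9.24 against 8.990, 8.959 and 8.997 (0.38, SE 0.10, adjusted p = 0.0282). Ncapg was at 10.13, 10.18 and 10.13 against 9.86, 9.84 and 9.85 (0.30, SE 0.070, adjusted p = 0.0142). In all 3 genes no array of one group overlapped with the other. Top2a read 11.22, 11.32 and 11.14 against 11.04, 11.04 and 11.06 (0.18, SE 0.057, adjusted p = 0.0570) and Mki67 12.22, 12.25 and 12.22 against 12.11, 12.06 and 12.15 (0.12, adjusted p = 0.129), both apart but not called. As the mean of its probe sets, Top2a was 0.39 higher and called (limma adjusted p = 0.0220). Several other alternatives, array weights and quantile normalization among them, also called Top2a, but a fit of only the groups compared did not. Cdk1 overlapped (10.62, 10.64 and 10.56 against 10.53, 10.53 and 10.59, a difference of 0.059 with a 95% interval from -0.070 to 0.19). Cenpa differed least, at 0.024.

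The number called at 12 h rested on single arrays. It was 3, 3 and 2 without replicate 1, 2 or 3 with Flt3-L alone, 2 and 0 without replicate 1 or 2 with CsA, and 17 without CsA replicate 3, the array that lay nearest to Flt3-L alone. In these fits 36 or 37 of the 37 genes stayed above 0. Cdc25c and Hmmr lost their call without any one of the 5 other arrays, with adjusted p between 0.0549 and 0.156, and Ncapg without CsA replicate 2 (adjusted p = 0.0695).

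At 24 h all 37 genes were again above 0 (47.1% of all genes), with a median of 0.16 against -0.0063, and 4 rose (1.6% of all genes) while 0 fell (2.19% of all genes). The 4 were Cenpe (0.26, SE 0.062, adjusted p = 0.0145), Anln (0.23, adjusted p = 0.0164), Prc1 (0.26, adjusted p = 0.0491) and Ncapg (0.24, adjusted p = 0.0491). Cenpe was at 9.42, 9.54 and 9.44 with CsA against 9.11, 9.26 and 9.27, and Prc1 at 9.20, 9.39 and 9.42 against 8.87, 9.19 and 9.16, in both with no overlap. Hmmr had the largest difference without a call (0.32, SE 0.10, adjusted p = 0.0818), at 8.49, 8.58 and 8.55 against 8.04, 8.29 and 8.33. At an unadjusted p under 0.05 there were 27 (13.2% of all genes), and 21 had all CsA arrays above the others (7.41% of all genes). Aurkb differed least (0.037), and Cdk1 by 0.078 with overlapping arrays.

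Same-numbered arrays deviated together at 24 h, and with the replicate number as a block 7 genes were called. Without Flt3-L replicate 1 the count was 0, as it was without CsA replicate 2, and without CsA replicate 3 it was 1. Prc1 then had an adjusted p of 0.378, 0.179 and 0.222 in these 3 fits, and Cenpe 0.121 and 0.0922 in the first pair. Between 34 and 37 genes were above 0 when an array was left out.

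At 48 h the mitotic genes with CsA lay on both sides of those without, 19 above 0 and 18 below, with a median of 0.0031 against 0.019 over all genes. Of all genes, 58.5% were above 0. The limma fit called 0 higher (2.17% of all genes) and 0 lower (2.34% of all genes). The smallest adjusted p was 0.249, and 1 gene had an unadjusted p under 0.05 (14.8% of all genes). Hmmr (0.17, SE 0.10), Smc2 (0.14, SE 0.062) and Cenpa (-0.12, SE 0.059) differed most. Hmmr overlapped, at 8.07, 8.20 and 8.26 with CsA against 7.71, 8.18 and 8.13. Cdk1 differed least (0.0031), with a 95% interval from -0.13 to 0.13, and Mki67 differed by 0.010 with an interval from -0.092 to 0.11.

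At 11 days 5 of the 37 were higher with CsA (4.92% of all genes) and 1 was lower (7.08% of all genes), with a median of 0.082 against 0.033 over all genes. Above 0 were 35 of the 37 (60.8% of all genes), and between 27 and 35 when an array was left out. Cenpa fell (-0.21, SE 0.059, limma adjusted p = 0.0203), at 9.57, 9.30 and 9.37 with CsA against 9.69, 9.62 and 9.56, where CsA replicate 1 overlaps. Those higher were Nek2 (0.20, SE 0.067, adjusted p = 0.0477), Tpx2 (0.19, adjusted p = 0.0345), Anln (0.19, adjusted p = 0.0256), Ncaph (0.16, adjusted p = 0.0412) and Ccnb2 (0.16, adjusted p = 0.0406). At an unadjusted p under 0.05 there were 10 (24% of all genes), and 6 had all CsA arrays above the others (17.2% of all genes). Ccnb2 was at 10.56, 10.55 and 10.55 against 10.36, 10.34 and 10.49, with no overlap. Aurkb and Cdk1 (0.0089 and 0.0092) differed least. The 5 calls became 0 without the first or second Flt3-L array or CsA replicate 1, 1 without CsA replicate 2 and 2 without CsA replicate 3, and the call of Cenpa was lost without Flt3-L replicate 1 or CsA replicate 2 or 3 (adjusted p between 0.0986 and 0.160).

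**Figure D4:**
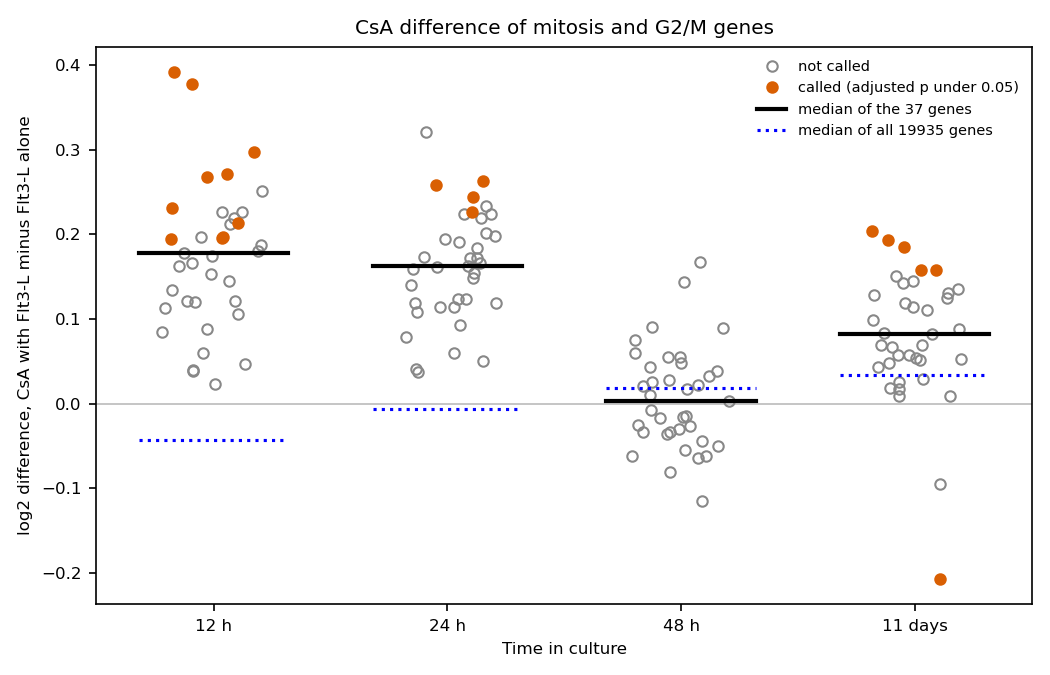
Log2 difference between CsA with Flt3-L and Flt3-L alone (y axis) of each of the 37 genes at 12 h, 24 h, 48 h and 11 days (x axis). Filled points passed an adjusted p under 0.05, black lines are medians of the 37 genes and dotted lines medians of all genes. All points lie above 0 at 12 h and 24 h, and they lie on both sides at 48 h. At 11 days 35 lie above 0 (60.8% of all genes do) and 2 below.

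Some other mitotic genes were also higher with CsA at 12 h and 24 h. At 12 h, 9 of 22 other kinetochore genes rose, Cenph the most (0.50, SE 0.11, adjusted p = 0.00787), with 3 of 4 other condensin subunits and 4 of 19 other kinesin and spindle genes, Ckap2 (0.30) among them. At 24 h 0 of the 22, 2 of the 4 and 5 of the 19 rose, Kif22 (0.31, SE 0.07, adjusted p = 0.00584) among them. None of the 14 transcription factors rose at either time, and Rbl2 fell at 24 h (-0.25, adjusted p = 0.00735). Of the 23 S phase genes 1 rose at 12 h (Ccne2, 0.39, adjusted p = 0.0268) and 0 at 24 h, with medians of 0.092 and 0.081.

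Marker lists also differed with CsA. The erythroid sum at 12 h was 43451 to 46270 with CsA and 38223 to 42590 without, and at 24 h 28447 to 32166 against 25643 to 28446, with 1 and 2 of 16 genes called higher. In the early B lineage list the largest differences were below 0. Rag1 stood at -0.51 at 12 h (limma adjusted p = 0.0315), -0.54 at 24 h (adjusted p = 0.0247) and -0.82 at 48 h (adjusted p = 0.000455). The largest promyelocyte differences were not called, Prtn3 at 12 h (0.16, adjusted p = 0.329) and Mpo at 24 h (-0.26, adjusted p = 0.0602). In the list of mast cell, basophil and eosinophil genes, 2 of 13 fell with CsA at 12 h, 10 at 24 h and 12 at 48 h, led at 24 h by Epx (-1.37) and Mcpt8 (-1.31). At 11 days 12 of 16 conventional dendritic cell genes and 11 of 14 late neutrophil genes were lower with CsA. Summed over the 37 mitotic genes, the intensity was 55574 to 58217 with CsA at 12 h, 39882 to 40742 at 24 h, 32031 to 34035 at 48 h and 20115 to 21398 at 11 days, so that the sums at 12 h and 24 h do not overlap those with Flt3-L alone. The part of the marker shifts in the CsA differences was not tested.

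Between 24 h and 48 h 31 genes fell with CsA, where 11 did without. The share of all genes that fell in that step with CsA was 9.24%, and the median of the 37 was -0.32, led by Nusap1 (-0.71, SE 0.079), Cenpf (-0.48) and Prc1 (-0.46), and those not called were Aurkb, Cdc25c, Cdk1, Kif23, Mad2l1 and Smc2. In the other steps the counts matched those without CsA, 36 of 37 between 12 h and 24 h (8.23% of all genes, median -0.49) and all 37 between 48 h and 11 days (19.3% of all genes, median -0.69). Tested directly, the CsA effect at 48 h minus that at 24 h was below 0 for all 37 genes (40.1% of all genes). Its median was -0.15 against 0.023 over all genes. The limma fit called 0 of the 37 (0.015% of all genes lower and 0% higher), 9 had an unadjusted p under 0.05 (3.53% of all genes), and the smallest adjusted p was 0.927, for Prc1 (-0.34, SE 0.11). A difference in the CsA effect between these times was thus not shown for any single gene.

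The CsA effect at 24 h minus that at 12 h was near 0, with a median of -0.0087. It was below 0 for 25 genes (42.0% of all genes) and above 0 for 12 (58.0%). In the limma fit 0 were called (0.0853% of all genes lower and 0.0351% higher), and 0 had an unadjusted p under 0.05 (9.82% of all genes). The effect at 11 days minus that at 48 h was above 0 for 31 genes (52.9% of all genes), with a median of 0.089. There 0 were called (4.65% of all genes lower and 2.31% higher), 5 had an unadjusted p under 0.05 (17.6% of all genes), and the smallest adjusted p was 0.128, for Tpx2 (0.23, SE 0.085). Nek2 (0.23) had an adjusted p of 0.173 there, and of 0.0444 without CsA replicate 2 at 48 h.

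Across the 27 arrays the 37 genes followed nearly one profile. As a description over arrays that share time, each gene's log2 signal correlated with the mean of the others at a Pearson r between 0.916 and 0.997, with a median of 0.987 and 28 genes above 0.98. The 3 least alike were Mad2l1 (0.916), Kif23 (0.926) and Cdk1 (0.942). Among all other genes, Kif18a (0.998), Cenpk (0.997), Kif22 (0.996), Kif14, Fancd2, Fbxo5, Aspm, Depdc1a, Spag5 and Cdca8 (0.994) were most like the mean profile of the 37. Ranked by likeness to that profile, 30 of the 37 were among the top 100 genes, 34 among the top 200, and the last was at rank 625. The profile was made from these same 37 genes, so their ranks describe them and are not a test.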

How the data were processed

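Total RNA of 27 samples was measured on Affymetrix arrays. The deposited values are linear intensity signals of 28815 probe sets, from 5.2 to 18180.7, which the authors made with RMA (background correction, quantile normalization and summary, version not given), per the submitters' processing notes. RMA makes array distributions alike, so a shift common to most genes would not be seen. Log2 of the deposited intensity was taken here.

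Platform annotation, which can be old, named 23385 probe sets, 21780 with a single symbol, 1605 with several, and 5430 were not named, leaving 19935 genes. Probe sets with several symbols or none were not analysed here. With limma 3.58.1 in R 4.3.3 (lmFit and eBayes), 1 model held a mean for each of the 9 groups (n = 3), with Benjamini-Hochberg adjustment over all genes for each comparison and a call at an adjusted p under 0.05. SE and 95% intervals are those of the model. Precision is limited by having 3 arrays a group. The code was tested on simulated data. Plots were drawn with matplotlib 3.10.9, and tables made with numpy 2.4.6 and pandas 2.3.3 under Python 3.11.15.

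The members and lists were chosen with earlier results of these data known. Named genes are Cdk1, Mki67, Top2a and the gene of highest mean signal in each of 9 roles (values on each array), in each comparison the 3 largest differences and the smallest, up to 4 largest per other list, the 10 genes most like the mean profile and the 3 members least like it. Other genes named in the text (calls in the CsA comparisons and members of a role) were chosen for completeness of a role or a count. Deviations of same-numbered arrays correlated over 0.1 in every pair for Flt3-L alone against unstimulated cells at 12 h (0.10 to 0.20) and 24 h (0.13 to 0.35). They did so too for CsA at 24 h (0.35 to 0.40) and 48 h (0.18 to 0.54), and 48 h against 24 h with Flt3-L alone (0.41 to 0.46). An array of another number correlated more for replicate 2 of Flt3-L alone at 24 h against unstimulated cells (0.17 against 0.13). That held also for CsA at 48 h, replicate 2 (0.23 against 0.18) and replicate 3 (0.22 against 0.19). Pairing by number is thus not shown in those comparisons, and the labels do not state it. Alternatives varied the variance model, array weights, a filter on dim genes, normalization, samples fitted, probe set rule, replicate block and each array.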

Additional observations from a re-analysis of the deposited data

How the results depend on the processing

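Under 10 alternatives other than leaving out an array, 172 of 190 recomputed counts stayed within 1.5 times the value reported, among them all counts against unstimulated cells. For the 10 genes called higher with CsA at 12 h, array weights gave 24, subtraction of array medians 20, a fit of only the groups compared 2, and the replicate block in that fit 0. For the 4 at 24 h, a mean-variance trend with robust variances gave 7, the filter on dim genes 8, quantile normalization 12, array medians 2, all probe sets 2, the replicate block 7 and only the groups compared 0. At 11 days the 5 higher became 0 with array medians, with only the groups compared, and with the block in that fit, and the 1 lower became 0 in the last pair. The 11 genes lower at 48 h against 24 h with Flt3-L alone became 7 with only the groups compared, and the CsA effect at 11 days minus 48 h gave 3 higher with quantile normalization. The cause of these changes was not tested. Fits of only the groups compared have fewer arrays. The replicate block changed no other count by over 1.5 times.

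Leaving out each array gave 34 to 36 lower at 12 h against unstimulated cells, 37 at the later times, 35 to 37 for 24 h against 12 h and 6 to 13 lower and 0 to 1 higher for 48 h against 24 h with Flt3-L alone, and 28 to 32 for the latter step with CsA. For CsA against Flt3-L alone it gave 0 to 17 higher at 12 h, 0 to 5 at 24 h and, at 11 days, 0 to 6 higher and 0 to 1 lower, and 0 to 1 higher for the CsA effect at 11 days minus 48 h.

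Of 1528 recomputed differences of single genes, 1434 kept direction and call, 47 lost a call, 15 gained one and 32 turned in sign. For CsA at 48 h, Cdk1 was -0.026 with array weights, -0.0051 with array medians and -0.066 to 0.041 with an array left out, Mki67 -0.0059 to 0.036, and Top2a 0.0025 as the mean of its probe sets. For CsA at 24 h and 11 days, Aurkb was -0.0010 to 0.067 and -0.043 to 0.078, and Cdk1 -0.035 to 0.071 at 11 days. Mad2l1 at 48 h against 24 h was 0.0019 with quantile normalization and -0.083 to 0.074 with an array left out, and Kif23 in that step with CsA -0.054 to 0.053. For differences of CsA effects, Mki67 (24 h minus 12 h) was 0.051 with quantile normalization and -0.030 to 0.026 with an array left out, Mad2l1 (48 h minus 24 h) -0.11 to 0.044 and Cdk1 (11 days minus 48 h) -0.038 to 0.075.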
